A study of Mus musculus with 9 samples.

Results

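The genes described here are 8 genes of cholesterol synthesis and of its control by SREBP2, measured in mouse liver: Hmgcs1, Idi1, Fdps, Sqle, Cyp51 and Tm7sf2, which encode enzymes, and Insig1 and Insig2, which encode regulators. They were chosen by name. Every non-control probe whose gene name in the scanner output was that of a member was taken, which gave 14 of 56605 probes and 8 of 37074 gene names. Of the 8 genes, 5 were well above background on at least 1 of the 9 arrays, and 5 probes of 4 genes could be tested, among 6591 probes of 5778 gene names tested in all.

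Livers of 3 groups were compared, with 3 arrays each. AAV-V mice had received a hepatocyte-specific adeno-associated virus (AAV) with an empty vector, AAV-GP73 mice the same kind of virus expressing GP73, a membrane protein of the Golgi apparatus, and both groups ate a regular diet. AAV-V HFD mice had received the empty vector and ate a high-fat diet (HFD), and no group combined GP73 with the HFD. All mice were male, and the study's methods give C57BL/6N as the strain. The labels give 12 months as the age of every sample, whereas the study's text counts 12 months from the injection, and its results and methods differ in the length of the HFD. No source says if an array held RNA of 1 mouse or of several pooled, and the p-values measure only the spread between these samples. Golm1, the gene of GP73, had 1 probe and was well above background on 0 of the 9 arrays, so that the labels could not be checked by this gene.

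The AAV-V arrays were dimmer than the others. Between 10.2% and 10.7% of their spots were well above background, against 16.0% to 18.4% for AAV-GP73 and 13.8% to 16.7% for AAV-V HFD. The AAV-V HFD arrays lay on a slide of their own, so that slide and diet cannot be told apart. Hepatocyte markers were detected in full or nearly so, with 9 or 10 of 10 genes on every array. Markers of erythroid cells were higher in AAV-GP73, where their summed scaled signal ranged from 3623 to 18315, than in AAV-V, from 431 to 1086, and in AAV-V HFD, from 728 to 1216. In AAV-GP73, 5 or 6 of these 7 markers were well above background, against 3 or 4 in AAV-V and 4 or 5 in AAV-V HFD. Of 10 markers of Kupffer cells, 1 or 2 were detected on the AAV-V arrays, 5 to 7 on the AAV-GP73 arrays and 5 to 8 on the AAV-V HFD arrays, while their summed signals overlapped, at 131 to 160, 127 to 189 and 150 to 244. Stellate cell markers summed to 204 to 339 in AAV-V, 191 to 219 in AAV-GP73 and 103 to 157 in AAV-V HFD, and lymphocyte markers to 96.7 to 152, 54.5 to 83.6 and 56.0 to 87.7, with 1 of 5 detected on each array. Hepatocyte markers summed to 24547 to 34667, 23414 to 34465 and 14096 to 26276. All these sums hold every probe of a list, detected or not. Cholangiocyte markers, detected on no AAV-V array, still summed to 24.5 to 29.5 there, against 8.68 to 16.0 in AAV-GP73 and 7.72 to 16.4 in AAV-V HFD. Sums made up largely of undetected markers therefore have no order between AAV-V and the other groups. The part of these cells in the results below was not tested. In whole liver, fewer cells of a type and less RNA per cell cannot be told apart.

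Cholesterol is built from acetyl-CoA through mevalonate and isoprenoids to squalene, which is cyclized to lanosterol and then trimmed and reduced to cholesterol. SREBP2, a transcription factor made as a membrane protein of the endoplasmic reticulum, switches on the genes of nearly all of these enzymes. When sterols are abundant, the Insig proteins hold SREBP2 and its escort Scap in the endoplasmic reticulum, so that liver cells make less cholesterol. Insig1 is itself a target of SREBP2, whereas Insig2 is not driven by it in the same way and is known in liver for a transcript that insulin lowers.

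SREBP2 binds sterol regulatory elements, often near CCAAT boxes, which are bound by NF-Y. The promoters of the 3 members detected in AAV-GP73 on all arrays but not in AAV-V are shown first, to let a reader see which of these letters they hold. Each run covers the 250 bases before the start of the RefSeq gene on GRCm38.p6 and is written 5′ to 3′ on the strand of the gene. Capitals mark TCACNCCAC, a form of the element, and CCAAT, both searched on both strands, and the 2 motifs did not overlap in any of these windows.
Hmgcs1, chr13:119690101-119690350, plus strand: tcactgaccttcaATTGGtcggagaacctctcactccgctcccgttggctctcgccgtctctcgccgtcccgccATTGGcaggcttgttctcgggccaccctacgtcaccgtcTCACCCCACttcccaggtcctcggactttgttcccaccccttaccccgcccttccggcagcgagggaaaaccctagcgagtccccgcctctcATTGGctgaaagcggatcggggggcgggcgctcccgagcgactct
Tm7sf2, chr19:6067851-6068100, minus strand: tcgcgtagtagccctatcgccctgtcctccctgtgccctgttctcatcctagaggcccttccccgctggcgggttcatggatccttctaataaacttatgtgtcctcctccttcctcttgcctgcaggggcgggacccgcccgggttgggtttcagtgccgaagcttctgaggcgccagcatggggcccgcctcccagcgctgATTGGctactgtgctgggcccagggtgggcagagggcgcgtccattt
Insig2, most upstream of 3 starts, chr1:121332590-121332839, minus strand: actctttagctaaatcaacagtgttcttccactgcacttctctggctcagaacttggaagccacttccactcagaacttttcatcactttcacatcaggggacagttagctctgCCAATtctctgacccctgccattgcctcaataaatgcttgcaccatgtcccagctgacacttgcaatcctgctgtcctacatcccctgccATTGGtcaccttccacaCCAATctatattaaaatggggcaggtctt

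Of the 8 members, 6 had an entry in the promoter table, with 8 windows in all. TCACNCCAC was found in 1 of the 8 windows, that of Hmgcs1, as TCACCCCAC beginning 137 bases before the start, and in 1.05% of all 32851 windows. CCAAT was found in 6 of the 8 and in 33.8% of all. The Hmgcs1 window held 3 CCAAT boxes, that of Tm7sf2 held 1, and those of Insig2 held 3 upstream and 0 at the other 2 starts. A match is a description of the letters and not a measurement of binding.

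The probes that could be tested are shown next by the first 30 of their 60 bases, with mm9 coordinates from the scanner output, since 2 of them read nearly the same stretch of Insig2. Capitals mark bases that the 2 Insig2 probes share.
Hmgcs1 A_55_P2032966, chr13_random:114793-114852: agtaattttaacgtttgggtgccaagaagt
Fdps A_55_P1966804, chr3:88897549-88897608: tcttcatggaacttgcaaacaagatctaca
Tm7sf2 A_52_P35064, chr19:6062882-6062941: cttaccgaatcataccctatgtctactgaa
Insig2 A_51_P439452, chr1:123201085-123201144: tatgtatacacaagCCTAATGGTAGTAGTG
Insig2 A_55_P2500188, chr1:123201071-123201130: CCTAATGGTAGTAGTGGTGACCACACTACT

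The 2 Insig2 probes overlap by 46 bases and are not independent measurements.  No probe was placed relative to exons or untranslated regions here.

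Most members were at or near background. On each AAV-V array 1 of the 14 probes was well above background, that of Fdps. On the AAV-GP73 arrays 5 to 7 were, of 4 or 5 genes, and on each AAV-V HFD array 2 were, of 2 genes. Over all spots, too, fewer were detected in AAV-V than in the other groups, so that detection here is read beside those shares.

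**Figure D1:**
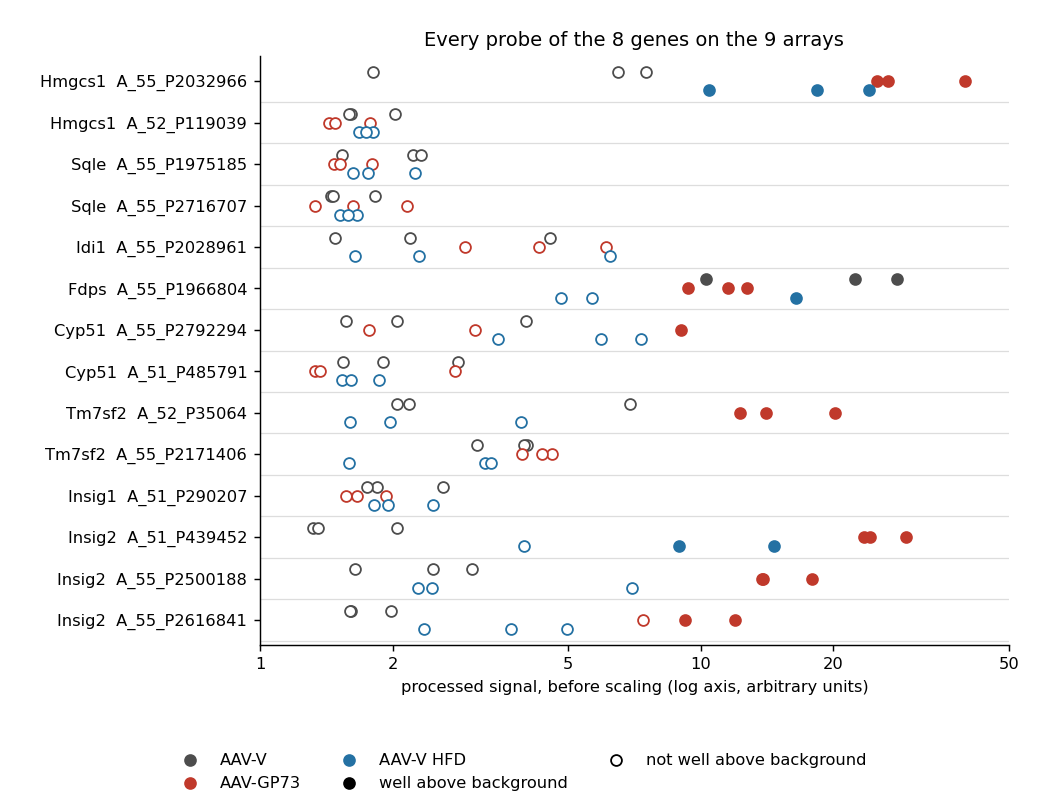
Processed signal before scaling, on a log axis in arbitrary units, for each of the 14 probes (rows) on the 9 arrays. Points are arrays, filled where the probe was well above background and open where it was not. The filled points lie mostly in AAV-GP73 for Insig2 and Tm7sf2, in AAV-GP73 and AAV-V HFD for Hmgcs1, and in AAV-V and AAV-GP73 for Fdps, whereas Sqle, Idi1 and Insig1 have none.

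For the tests, arrays were brought to a common 75th percentile of log2 processed signal, taken over probes detected on all 9 arrays, and limma was fitted to all 3 groups. A call needed a difference of 2-fold or more together with an adjusted p below 0.05 (Benjamini-Hochberg, all 6591 probes), and an adjusted p below is from this limma fit unless another setting or a left-out array is named beside it. Where a probe was well above background on no array of 1 group, its fitted difference is no measured size. The least fold change is then given as "at least", with each array of the dim group set to its lowest detected signal or, if higher, to the probe's own value. The lowest detected scaled log2 signal was 3.77 to 3.94 on the AAV-V arrays, above the 1.85 to 2.49 of AAV-GP73 and the 2.04 to 2.81 of AAV-V HFD, so that low probes are bounded least closely in AAV-V.

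Hmgcs1, the cytosolic HMG-CoA synthase, an early enzyme of the pathway, was brighter in AAV-GP73 than in AAV-V. Its processed signal was 6.50, 1.80 and 7.50 on the 3 AAV-V arrays, 25.1, 26.6 and 39.8 on the AAV-GP73 arrays and 18.3, 24.1 and 10.5 on the AAV-V HFD arrays. All 3 AAV-V arrays were without detection, and all 6 others were detected. Before scaling AAV-V did not overlap either other group, but the AAV-V arrays were also dimmer as a whole. On the scaled log2 scale the means of AAV-V, AAV-GP73 and AAV-V HFD, in this order, were 3.15 ± 1.04, 4.36 ± 0.17 and 3.60 ± 0.35 (SD, n = 3 each), and after scaling AAV-V HFD overlapped AAV-V.

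Hmgcs1 was called higher in AAV-GP73 than in AAV-V, at least 1.41-fold, with a fitted log2 difference of 1.21 (standard error 0.44, limma adjusted p = 0.0317). Its probe entered the test through AAV-GP73 and AAV-V HFD, not through AAV-V. For AAV-V HFD against AAV-V there was no call, since the fitted value was 0.45 (adjusted p = 0.399), with no least fold change to give, nor was there one for AAV-GP73 against AAV-V HFD, at 0.76 (standard error 0.44, adjusted p = 0.438). The call against AAV-V was lost without AAV-V replicate 2 (0.60, adjusted p = 0.102), where this probe was dimmest, and without AAV-GP73 replicate 1, 2 or 3 (adjusted p = 0.0592, 0.0687 and 0.0920), as well as with the authors' log2 values (1.58, adjusted p = 0.0546), normexp (-0.45) and the methods' t-test (p = 0.116 unadjusted and 0.168 adjusted). Conversely, AAV-V HFD against AAV-V was called for Hmgcs1 with scaling by all probes (1.41, adjusted p = 0.0183) or by spike-in controls (1.79, adjusted p = 0.00433). The other Hmgcs1 probe, A_52_P119039, had signals of 1.43 to 2.02 and was detected on 0 arrays.

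Fdps, the farnesyl diphosphate synthase that joins isoprenoid units on the way to squalene, was lower in both other groups than in AAV-V after scaling. Its processed signal was 27.9, 10.3 and 22.4 in AAV-V, 11.5, 9.36 and 12.8 in AAV-GP73 and 4.81, 5.66 and 16.4 in AAV-V HFD. It was the member detected on all 3 AAV-V arrays, and it was also detected on all 3 AAV-GP73 arrays and on AAV-V HFD replicate 3. On the scaled log2 scale AAV-V had 5.82, 4.46 and 5.36, all above the 3.11, 2.79 and 2.91 of AAV-GP73 and the 1.51, 1.92 and 4.01 of AAV-V HFD.

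The log2 difference of Fdps from AAV-V was -2.28 in AAV-GP73 (standard error 0.56, adjusted p = 0.00438) and -2.74 in AAV-V HFD (standard error 0.56, adjusted p = 0.00237), where 2 of 3 arrays were not well above background. The values of AAV-V HFD replicates 1 and 2, 1.51 and 1.92, lay below the lowest detected signals of these arrays, 2.04 and 2.33. The size of -2.74 therefore rests partly on values that were not measured. Both calls stayed with any array left out, in AAV-GP73 between -2.67 and -1.98 and in AAV-V HFD between -3.51 and -2.25. AAV-GP73 and AAV-V HFD share the AAV-V controls, and the difference between them was 0.46 (standard error 0.56, adjusted p = 0.726). When the arrays were scaled by spike-in controls, Fdps was not called in AAV-GP73 (-0.59, standard error 0.53, adjusted p = 0.315), and the call in AAV-V HFD was lost with the methods' t-test (adjusted p = 0.0834).

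The enzymes between HMG-CoA and lanosterol gave few other measurements. Idi1, which isomerizes isopentenyl diphosphate, had signals of 1.48 to 6.21 and Sqle, the squalene epoxidase, 1.54 to 2.31 in AAV-V, 1.47 to 1.79 in AAV-GP73 and 1.62 to 2.24 in AAV-V HFD for its probe A_55_P1975185. The second Sqle probe, A_55_P2716707, ranged from 1.33 to 2.16. None of these 3 probes was well above background on any array, so that no direction can be drawn for either gene.

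Cyp51, the lanosterol demethylase, was detected on 1 array, AAV-GP73 replicate 1, where the signal of A_55_P2792294 was 9.04 against 3.07 and 1.77 on the other 2 AAV-GP73 arrays. In AAV-V that probe had 4.01, 1.57 and 2.04, and in AAV-V HFD 7.31, 3.47 and 5.95. The AAV-GP73 arrays overlapped both other groups, and the probe was not tested. Its second probe, A_51_P485791, was detected on 0 arrays.

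Tm7sf2, a sterol reductase that acts just after Cyp51, was detected in AAV-GP73 and in neither other group. The processed signal of A_52_P35064 was 6.89, 2.18 and 2.04 in AAV-V, 14.1, 12.3 and 20.1 in AAV-GP73 and 3.91, 1.97 and 1.60 in AAV-V HFD. Before scaling the AAV-GP73 arrays lay above all 6 others, of which the AAV-V arrays were dimmer as a whole. After scaling the AAV-GP73 arrays stood at a log2 of 3.40, 3.18 and 3.57, whereas AAV-V had 3.80, 2.23 and 1.90 and AAV-V HFD 1.21, 0.39 and 0.65, all without detection.

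Tm7sf2 was higher in AAV-GP73 than in AAV-V HFD, at least 1.99-fold (fitted log2 difference 2.63, standard error 0.44, adjusted p = 0.00987), and was not called against AAV-V (0.74, standard error 0.44, adjusted p = 0.160). The first call was lost without AAV-GP73 replicate 3 (adjusted p = 0.0575) and with quantile normalization (adjusted p = 0.158), normexp (0.685), the authors' log2 values (0.183) or the methods' t-test after adjustment (0.0847), and the comparison with AAV-V was called without AAV-V replicate 1 (1.32, adjusted p = 0.00528) and with scaling by all probes (1.73, adjusted p = 0.00414) or by spike-in controls (2.42, adjusted p = 0.000765). Between AAV-V HFD and AAV-V the fit gave -1.89 (adjusted p = 0.00456) and passed the threshold, but neither group was detected on any array, so that no direction or size is given. The second Tm7sf2 probe, A_55_P2171406, was detected on 0 arrays. The study had named Tm7sf2 and Insig from these same arrays, so that their direction here is not independent evidence. The tested Tm7sf2 probe also entered the test only through AAV-GP73, the group where it was detected.

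Insig2 had the lowest adjusted p of the 5 member probes in AAV-GP73 against AAV-V. Both tested Insig2 probes entered the test only through AAV-GP73. The processed signal of A_51_P439452 was 1.32, 1.35 and 2.05 in AAV-V, 24.2, 23.5 and 29.2 in AAV-GP73 and 8.95, 14.7 and 3.96 in AAV-V HFD. No AAV-V array was detected, all 3 AAV-GP73 arrays were, and of AAV-V HFD replicates 1 and 2 were. AAV-GP73 lay above all 6 other arrays, with scaled log2 values of 4.18, 4.11 and 4.10 against 2.40, 3.29 and 1.96 in AAV-V HFD and 1.41, 1.54 and 1.91 in AAV-V, where values without detection have no order.

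Insig2 was called higher in AAV-GP73 than in AAV-V, at least 1.21-fold by this probe, with a fitted log2 difference of 2.51 (standard error 0.34, adjusted p = 0.000158), and the call stayed with any array left out. The bound is far below the fitted value because AAV-V arrays detect nothing dimmer than the signals given above. Between AAV-GP73 and AAV-V HFD, with detection on 3 and 2 arrays, the log2 difference was 1.58 (standard error 0.34, adjusted p = 0.0303). That call was lost without AAV-GP73 replicate 1, 2 or 3 (adjusted p = 0.0832, 0.107 and 0.133) and without AAV-V HFD replicate 1 or 3 (adjusted p = 0.0935 and 0.0793), as well as with the replicate number as a block (adjusted p = 0.0537), quantile normalization (0.0990), normexp (0.612), no filter on dim probes (0.122), the authors' log2 values (0.126) or the methods' t-test after adjustment (0.246).

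In AAV-V HFD against AAV-V, Insig2 had a fitted log2 difference of 0.93 (standard error 0.34, adjusted p = 0.0355), under the 2-fold threshold, and no least fold change could be given. It was called there without AAV-V replicate 3 (1.07, adjusted p = 0.0430) or AAV-V HFD replicate 3 (1.22, adjusted p = 0.0137), and with scaling by all probes (1.89), quantile normalization (2.10), spike-in controls (2.27) or the authors' log2 values (2.37).

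The overlapping Insig2 probe, A_55_P2500188, had signals of 3.03, 1.64 and 2.47 in AAV-V, 13.9, 13.7 and 17.9 in AAV-GP73 and 2.28, 6.98 and 2.45 in AAV-V HFD. It was detected in AAV-GP73, on all 3 arrays, and on none of the other 6. It was higher in AAV-GP73 than in AAV-V HFD, at least 1.97-fold (2.07, standard error 0.40, adjusted p = 0.0208), a call lost without AAV-GP73 replicate 1, 2 or 3 (adjusted p = 0.0629, 0.0713 and 0.0979) or AAV-V HFD replicate 1 or 3 (adjusted p = 0.0638 and 0.0504). It was also lost with quantile normalization (adjusted p = 0.0990), normexp (0.851), no filter on dim probes (0.0763), the authors' log2 values (0.124) and the methods' t-test after adjustment (0.246). Against AAV-V it was called (1.17, standard error 0.40, adjusted p = 0.0253) with no least fold change, and that call was lost without AAV-V replicate 2 or 3 (adjusted p = 0.0876 and 0.0649) or AAV-GP73 replicate 1, 2 or 3 (adjusted p = 0.0598, 0.0617 and 0.0651).

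The third Insig2 probe, A_55_P2616841, was not tested. Its signals were 1.61, 1.60 and 1.98 in AAV-V, 12.0, 7.38 and 9.22 in AAV-GP73 and 2.35, 4.98 and 3.71 in AAV-V HFD. Before scaling the AAV-GP73 arrays lay above the other 6, and their replicates 1 and 3 were detected. Insig1, the paralog that SREBP2 induces, was detected on 0 arrays, with signals of 1.57 to 2.60.

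**Figure D2:**
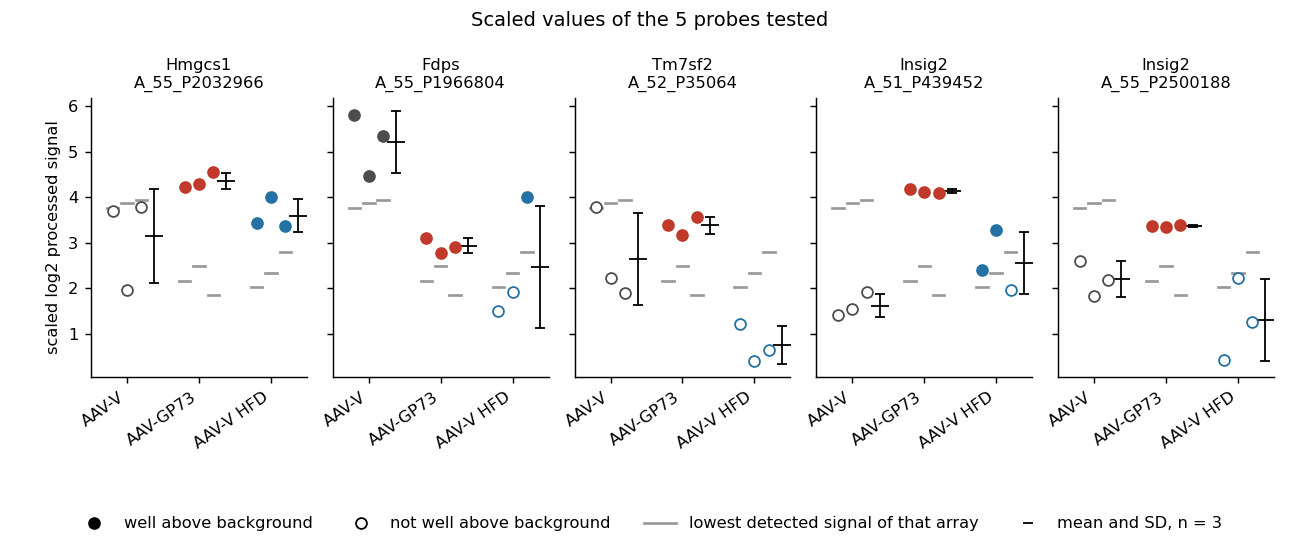
Scaled log2 processed signal of the 5 probes tested, for each array (points, filled where well above background), with the mean and SD of each group of 3 arrays beside them. Grey bars are the lowest detected signal of each array, and an open point below its bar has no order. AAV-GP73 stands highest for both Insig2 probes, and Fdps stands highest in AAV-V.

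By its brightest probe, each member was counted as called or not, and only the 4 genes tested could be called. The shares of probes beside these counts are over probes tested, so that a count out of 8 genes cannot be set against them. For AAV-GP73 against AAV-V the calls covered 3 of the 8 genes, Hmgcs1 and Insig2 higher and Fdps lower. Of all probes tested in that comparison 51.8% were called, 33.9% higher and 17.9% lower. Between AAV-V HFD and AAV-V the 2 called were Fdps, lower, and Tm7sf2, for which neither group was detected. There 42% of all probes tested were called, 25% higher and 16.9% lower. Between AAV-GP73 and AAV-V HFD, Tm7sf2 and Insig2 were called, both higher, where 2.67% of all probes tested were called, 2.08% higher and 0.592% lower. A probe entered the test only through detection on all arrays of a group, so that no rate over the members tested is given as support. The Tm7sf2 probe and both Insig2 probes entered through AAV-GP73 alone, where they were higher. Their calls are therefore no support for that direction. Hmgcs1 entered through AAV-GP73 and AAV-V HFD but not through AAV-V, so that its call against AAV-V is no such support either. The same holds for every gene below with an "at least" fold change, whose dimmer group had no detection. In both comparisons with AAV-V calls were common.

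The median log2 difference of all probes tested was 0.64 for AAV-GP73 against AAV-V, 0.41 for AAV-V HFD against AAV-V and 0.10 for AAV-GP73 against AAV-V HFD. Relative to the median of all probes tested, in AAV-GP73 against AAV-V, Insig2 stood at 1.88 for A_51_P439452, Hmgcs1 at 0.57, Tm7sf2 at 0.10 and Fdps at -2.91. In AAV-V HFD against AAV-V, Fdps stood at -3.14, Hmgcs1 at 0.05 and Insig2 at 0.52 for the same probe.

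**Figure D3:**
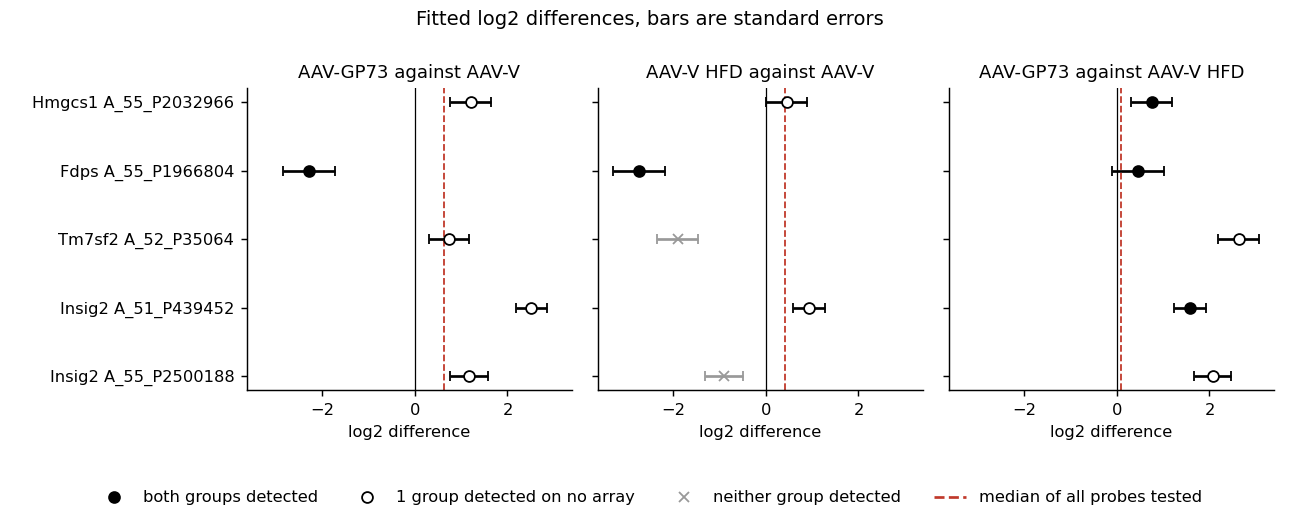
Fitted log2 differences of the 5 probes tested, with standard errors, in the 3 comparisons. Filled points had detection in both groups, open points in 1 group, so that their size is not measured, and grey crosses in neither. Fdps lies left of 0 in both comparisons with AAV-V, and Insig2 and Tm7sf2 lie right of the dashed median of all probes in AAV-GP73 against AAV-V HFD.

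The pathway as a whole gave a mixed picture. Of 21 enzymes of cholesterol synthesis, the 6 member enzymes included, 20 had a probe, 8 were tested and 8 were detected on no array. In AAV-GP73 against AAV-V, 1 was higher (Hmgcs1) and 3 were lower (Fdps, Fdft1 and Sc5d), with a median log2 difference of -0.10 over the 8 tested against 0.64 over all probes. In AAV-V HFD against AAV-V, 0 were higher and 4 lower, Tm7sf2 without detection among them, with a median of -0.85 against 0.41. In AAV-GP73 against AAV-V HFD 1 was higher, Tm7sf2, with a median of 0.29 against 0.10. Both genes called higher are members.

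Sc5d, a sterol desaturase, was detected on all 9 arrays. Its log2 difference from AAV-V was -1.25 in AAV-GP73 (adjusted p = 0.00367) and -1.12 in AAV-V HFD (adjusted p = 0.00878). Fdft1 and Ebp had probes that disagreed. For Fdft1, the squalene synthase that follows Fdps, the probe A_55_P2033250 was detected in AAV-V and on no other array, with a drop of at least 5.78-fold to AAV-GP73 and of at least 4.94-fold to AAV-V HFD, while A_66_P111208 was not detected in AAV-V and was called higher in AAV-GP73 with no least fold change (1.12, adjusted p = 0.00561). Neither Fdft1 probe entered the test through the group where it was dimmer, so that neither call is support for its direction. For Ebp, the sterol isomerase, A_66_P121130 was lower in both (-1.52 and -1.47), and A_51_P429682, the brighter, was not called (0.14 and -0.20).

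Pmvk, which makes mevalonate diphosphate, was tested and not called in any comparison. Of the 8 genes of SREBP2 control, 3 were tested, Scap and Insig2 among them, and Insig2 was called. Scap, the escort of SREBP2, was detected in AAV-GP73 but not in AAV-V and was not called (0.73, adjusted p = 0.172). Srebf2 itself was detected on 0 arrays. Of 7 other SREBP2 targets 1 was tested, Ggps1, whose brighter probe A_55_P2727267 was detected in AAV-V and not in AAV-GP73, where it was at least 6.14-fold lower (adjusted p = 7.50e-05), and was lower in AAV-V HFD by a log2 difference of -1.10 (adjusted p = 0.00961). Its second probe, A_55_P2170569, was not called (0.69 and -0.02).

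Among 10 genes of sterol efflux, esterification and the oxysterol receptors, 4 were tested. In AAV-GP73 against AAV-V, Nr1h3, which encodes LXRα, was called higher, at least 2.01-fold by its brighter probe A_66_P120249, and Nr1h2, which encodes LXRβ, was lower (-1.38, adjusted p = 0.00273). In AAV-V HFD against AAV-V the same 2 genes were called the same way, Nr1h3 at least 2.12-fold and Nr1h2 by -1.31, and Abcg5, a subunit of the biliary sterol exporter, was called with no least fold change. None of the 10 was called between AAV-GP73 and AAV-V HFD.

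Acat1, a mitochondrial thiolase that makes acetoacetyl-CoA, was detected in AAV-GP73 and AAV-V HFD on all arrays and in AAV-V on none. Acat1 thus entered the test only through the groups where it was brighter, and its calls are no support for that direction. Its level exceeded that of AAV-V at least 2.03-fold in the AAV-GP73 livers (adjusted p = 0.000284) and at least 2.31-fold in those of AAV-V HFD (adjusted p = 0.000464). Between AAV-GP73 and AAV-V HFD it was not called (-0.18, adjusted p = 0.874).

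**Figure D4:**
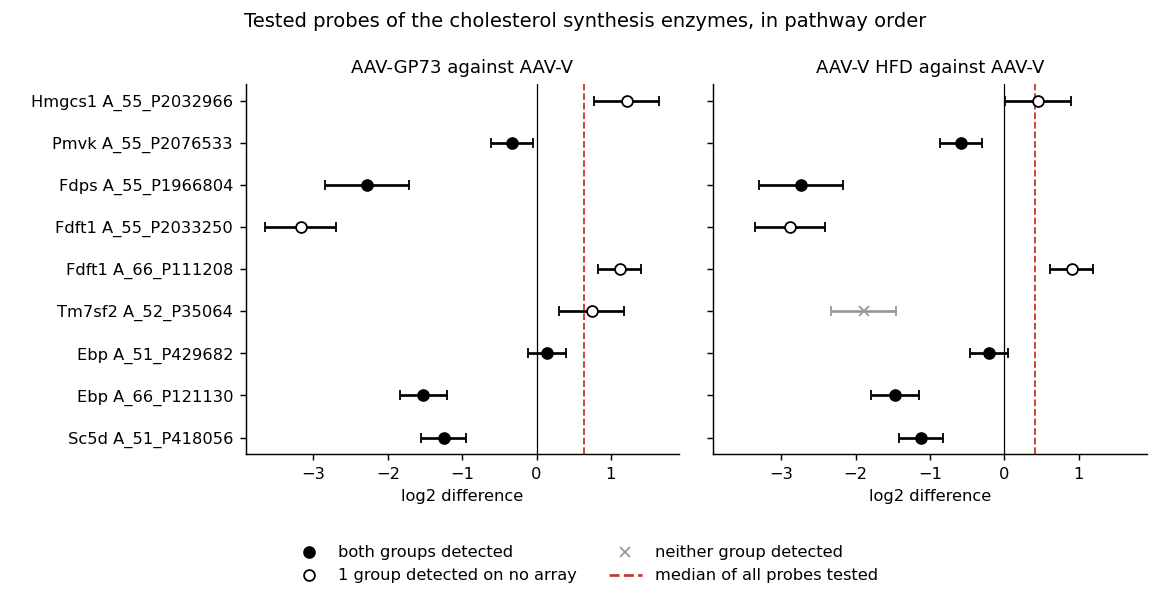
Fitted log2 differences from AAV-V, with standard errors, for tested probes of cholesterol synthesis enzymes in the order of the pathway, 1 enzyme left out. Symbols are as for the members, and the dashed line is the median of all probes tested. The probes of Fdft1 lie on opposite sides of 0, and Fdps and Sc5d lie left of it in both comparisons.

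How the arrays were set to a common level moved the comparisons with AAV-V. The median of all probes tested in AAV-GP73 against AAV-V was 0.64 with the scaling used here, 1.63 with the 75th percentile of all probes, 2.32 with spike-in controls and -0.58 with normexp and an offset of 50. The share of calls that were higher went with it, 65.4%, 91.3%, 98.2% and 17.0%. In AAV-V HFD against AAV-V that share was 59.6%, 95.2%, 98.2% and 8.28%, and 71.5% with quantile normalization, and in AAV-GP73 against AAV-V HFD it was 77.8% and 94.7% with spike-in controls. Of the 6 alternatives, 3 (spike-in controls, all probes, and the median of detected probes) move all probes of an array alike and leave each probe's distance from the median as it was. Under the others, quantile normalization, normexp and the authors' log2 values, Fdps in AAV-GP73 against AAV-V lay at -2.999, -0.53 and -3.30 from the median, and Insig2 by A_51_P439452 at 2.74, 0.17 and 3.12. The difference of Insig2 itself was negative with normexp, under which the median of all probes tested was -0.58. Why it turned was not tested.

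**Figure D5:**
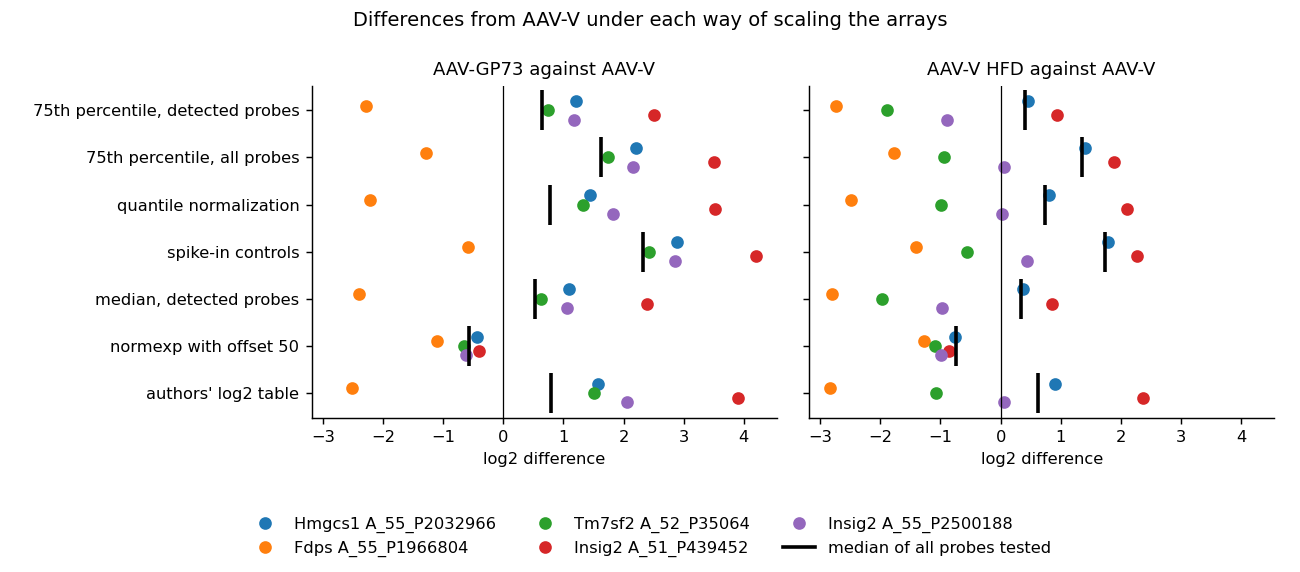
Log2 differences from AAV-V of the 5 probes tested (coloured points) and the median of all probes tested (black bar) under the scaling used and 6 alternatives. The points move right and left with the bar, and Fdps lies left of it in each row, which 3 of the 6 alternatives could not change.

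The 5 genes outside the members whose pattern was most like that of Insig2 (A_51_P439452) over the 9 arrays were Bnip3l, Lrrc47, Strn4, Mocos and Sec24a, with Pearson r of 0.99, 0.98, 0.98, 0.97 and 0.97 on the scaled log2 scale. These are descriptions over 9 arrays of 3 groups that share their levels within a group, and they use the values of the 4 arrays on which Insig2 was not well above background. Sqle was not tested, and no genes are given for it.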

How the data were processed

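Total RNA of liver was extracted with Trizol, labelled with Cy3 and hybridized to 9 single-colour Agilent arrays, 3 per group by the labels. The deposited intensity values are processed signals of Feature Extraction (12.0.3.1 in the file headers, 10.7 in the submitters' processing notes), corrected within each array and not scaled between arrays. A table deposited by the authors gives log2 values of these arrays, with a normalization not given in the sources used here, and served as an alternative. Coordinates and gene names are those of the scanner output (mm9), and promoters are from RefSeq (GRCm38.p6).

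Spots with an outlier mark (98 to 151 per array) were left out, and spots of a probe were averaged. The 75th percentile was taken over probes detected on all arrays because most probes were not detected. Probes detected throughout 1 or more groups were fitted with limma 3.58.1 in R 4.3.3 (lmFit, eBayes, 3 groups, no covariate). The methods' t-test was an alternative. Precision is limited by there being 3 arrays a group. The fit was tested on simulated data. Where a gene had several probes, each was tested by itself, and counts of genes used the brightest probe for members and the brightest tested probe for lists.

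Named were all members, genes of the pathway lists that were called against AAV-V or stand beside a member, and the 5 genes most like Insig2. Some genes of the lists count in the totals but are not reported here by name. Members and lists were chosen with earlier results of these data known. Correlations of deviations between equal replicate numbers lay between -0.11 and 0.17, and the numbers were not used to pair arrays.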

Additional observations from a re-analysis of the deposited data

How the results depend on the processing

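The difference of Fdps from AAV-V was negative in both groups under every alternative that kept its probe, but not called with spike-in scaling in AAV-GP73 (-0.59) or with the adjusted t-test in AAV-V HFD. With normexp every tested member probe was negative in both comparisons with AAV-V, so that the sign there does not set Fdps apart. With normexp and an offset of 50, AAV-GP73 against AAV-V turned to -0.45 for Hmgcs1, -0.66 for Tm7sf2, and -0.41 and -0.61 for Insig2 (A_51_P439452 and A_55_P2500188). AAV-V HFD against AAV-V turned to -0.76 for Hmgcs1 and -0.86 for Insig2 A_51_P439452. The medians of all probes tested were -0.58 and -0.74 in these comparisons. The offset exceeds the processed signals of all member probes, Fdps included, and why values turned was not tested. In AAV-V HFD against AAV-V, Insig2 A_55_P2500188 turned positive with all-probe scaling (0.058), quantile normalization (0.022), spike-in controls (0.44) and the authors' values (0.053).

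The number of probes called in AAV-GP73 against AAV-V was 5215 of 6591 tested with spike-in scaling and 893 of 6591 with normexp. The number called was 47085 of 56605 with no filter and 1250 of 2667 with detection on all 9 arrays, where no member is left. For AAV-V HFD against AAV-V it was 4512, 966, 45130 and 1086, and 1695 with the methods' t-test adjusted. For AAV-GP73 against AAV-V HFD it was 378, 49, 78 and 71, then 48 with quantile normalization, 27 with the authors' values, 389 with the methods' t-test unadjusted and 13 adjusted. Each comparison had the same numbers tested, 6591 for every setting without its own number above. Members called were 1 with normexp, 5 with no filter and 0 with full detection in the first comparison. In the second they were 5 with no filter and 0 with full detection or the adjusted t-test. In the third they were 0 with quantile normalization, normexp, the authors' values, full detection or the adjusted t-test, and 1 with no filter or with the replicate block, which left 124 probes called and changed no other count of members. With no filter most probes were called in both comparisons with AAV-V, 44727 lower in the first and 43390 lower in the second. The 5 members called there are therefore no result about the members.

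With each array left out, the first comparison gave 3118 to 3615 probes and 2 to 4 members, the second 2414 to 3074 and 2 or 3, and the third 39 to 188 and 0 to 2. Hmgcs1 in AAV-V HFD against AAV-V ranged from -0.16 to 0.76, negative without AAV-V replicate 2, and Fdps in AAV-GP73 against AAV-V HFD from -0.027 to 1.23, negative without AAV-V HFD replicate 1. The cause was not tested. Low signal left 9 of 14 probes without a test.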
